A study of Mus musculus with 41 samples.

Results

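The comparison described here is between ex-Foxp3 cells and labeled regulatory T (Treg) cells of Uhrf1-floxed mice, 12 of the 41 libraries of the series: the 6 libraries of tdTomato-positive, Foxp3-GFP-negative cells and the 6 of tdTomato-positive, Foxp3-GFP-positive cells, taken by genotype and sorted population and joined by the library number in their names. All 12 came from mice that carried floxed Uhrf1 on both alleles, a GFP fused to a tamoxifen-inducible Cre (CreERT2) in Foxp3, and a Cre-dependent tdTomato reporter in Rosa26 (fl/fl in short). Mice were 8 weeks old, per the labels, and ate tamoxifen chow for 2 weeks and then standard chow for 4 weeks. The 10 libraries of the same populations of Uhrf1+/+ controls (5 each), which carried the same Cre and reporter and ate the same chow, serve as the comparison. RNA was sequenced as stranded total RNA from sorted cells, and the labels call the libraries of a group biological replicates, without naming the organ, the sex or the mouse.

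Treg cells are CD4 T cells that restrain immune responses, and the transcription factor Foxp3 sets their identity. Foxp3 is kept on through cell division by DNA demethylation at its own enhancers and at other Treg genes, and cells that lose it (ex-Foxp3 cells) can take on features of conventional helper T cells. Uhrf1 binds hemimethylated CpG dinucleotides behind the replication fork and brings Dnmt1 there, so that methylation is copied to the new strand. In this design tamoxifen turns on Cre in cells that express Foxp3 at that time, so labeled cells were Foxp3-GFP-positive at the sort and ex-Foxp3 cells were GFP-negative; the ex-Foxp3 libraries still held Foxp3 RNA, at 13.4 to 114 CPM (median 67.7). The tdTomato gate reads recombination of the reporter and not of Uhrf1, and both populations come from mice with the same floxed alleles, so the comparison is of Foxp3-GFP status within one genotype. Foxp3-GFP chose the cells, so the level of Foxp3 is a check of the sort and no result.

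Gene levels are counts scaled to a common library total (CPM, with factors from the trimmed mean of M values), set separately for fl/fl and control libraries. Sums over lists, markers and Y-linked genes are CPM of the total count, without these factors. Log2 fold changes are ex-Foxp3 minus labeled ± SE from a fit of the 12 libraries with library number as a block (n = 6 pairs). A gene is called when its adjusted p over all genes tested was under 0.05. Libraries held 2095699 to 2665449 counts in ex-Foxp3 and 1052731 to 2553989 in labeled cells. The Y-linked genes Ddx3y, Eif2s3y, Kdm5d and Uty summed to 0 CPM in all 12 fl/fl libraries. In control libraries 2 and 3 they summed to 434 and 370 CPM in ex-Foxp3 and to 400 and 318 CPM in labeled cells. The other control libraries of these populations held at most 2.33 CPM. The defining T cell genes summed to 3621 to 4370 CPM in labeled and 4164 to 4551 CPM in ex-Foxp3 cells, with none of the 7 at 0. Of the markers of other cells, the CD8 T cell sum was 8.55 to 12.5 CPM in labeled and 5.25 to 21.6 CPM in ex-Foxp3 libraries, the myeloid sum 33.2 to 73.9 and 28.2 to 51.6 CPM, and the B and plasma cell sum 17.6 to 45.8 and 38.7 to 56.6 CPM, with Ms4a1 and Ebf1 at 0 in every labeled library. Erythroid genes summed to 5.44 to 13.7 CPM in ex-Foxp3 libraries 1 to 3 and to at most 1.25 CPM in the others, and the NK cell sum was 9.15 CPM in ex-Foxp3 library 1 and at most 1.17 CPM elsewhere. The labeled libraries fell into separate ranges by number: genes of the G2/M list (genes of mitosis) summed to 5046, 3045 and 4000 CPM in labeled libraries 1 to 3 and to 429, 543 and 552 CPM in 4 to 6. The labels do not say what sets numbers 1 to 3 apart from 4 to 6, and the difference between the 2 sets of numbers was not tested.

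Windows from 250 bases before to 50 bases after the RefSeq start (GRCm38.p6), all on the plus strand, are shown for Foxp3, the gene the gate reads, for Il2ra, the called loss with the smallest p, and for Themis and Ehd3, a pair of the clearest gains, because Uhrf1 acts at CpG sites. Capitals mark each CG.
Foxp3: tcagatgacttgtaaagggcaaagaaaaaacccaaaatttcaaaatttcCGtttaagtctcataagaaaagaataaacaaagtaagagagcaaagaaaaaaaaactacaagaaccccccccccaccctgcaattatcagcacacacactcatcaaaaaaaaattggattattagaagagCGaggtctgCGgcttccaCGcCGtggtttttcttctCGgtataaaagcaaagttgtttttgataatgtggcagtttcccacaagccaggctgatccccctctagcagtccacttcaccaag
Il2ra: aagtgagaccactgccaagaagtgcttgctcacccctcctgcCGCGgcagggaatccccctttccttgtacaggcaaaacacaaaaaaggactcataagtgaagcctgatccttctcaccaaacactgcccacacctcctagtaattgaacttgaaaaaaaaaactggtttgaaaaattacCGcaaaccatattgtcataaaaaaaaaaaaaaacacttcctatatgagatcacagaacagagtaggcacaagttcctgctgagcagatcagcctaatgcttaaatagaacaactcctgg
Themis: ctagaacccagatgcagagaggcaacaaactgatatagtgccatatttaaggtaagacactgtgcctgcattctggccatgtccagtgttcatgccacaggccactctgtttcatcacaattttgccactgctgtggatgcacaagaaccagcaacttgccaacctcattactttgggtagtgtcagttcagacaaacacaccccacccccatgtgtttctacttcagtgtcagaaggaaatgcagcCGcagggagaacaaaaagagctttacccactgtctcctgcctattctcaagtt
Ehd3: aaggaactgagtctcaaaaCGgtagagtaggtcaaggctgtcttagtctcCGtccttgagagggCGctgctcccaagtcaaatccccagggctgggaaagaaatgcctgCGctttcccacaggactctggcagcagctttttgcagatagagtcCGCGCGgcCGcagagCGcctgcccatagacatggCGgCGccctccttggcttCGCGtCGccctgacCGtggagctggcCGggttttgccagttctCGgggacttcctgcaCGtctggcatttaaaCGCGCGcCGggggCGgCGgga
The Foxp3 window (chrX:7579426-7579725) held 6 CG and the Il2ra window (chr2:11642542-11642841) 3, against a median of 7 over 32817 RefSeq promoter windows of this length, of which 94.6% held at least 1. The Themis window (chr10:28668110-28668409) held 1 CG and the Ehd3 window (chr17:73804591-73804890) 24, so the 2 gains lay at opposite ends of the 4. These counts describe the sequence; methylation was not measured in these libraries.

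Foxp3 followed the gate. Labeled libraries 1 to 6 held 365, 362, 324, 384, 513 and 364 CPM, and ex-Foxp3 libraries 22, 57, 13.4, 78.4, 114 and 83.7 CPM, with no overlap between the groups. The lowest 3 ex-Foxp3 values were those of numbers 3, 1 and 2. Uhrf1 was counted over the whole gene, and which exons the floxed alleles lose is not given in the sources used here, so its count does not check the deletion. Uhrf1 stood at 90.6, 70.1, 74.4, 10.5, 17.4 and 19.1 CPM in labeled libraries 1 to 6 and at 26.2, 6.99, 25.3, 13.1, 17.3 and 11.6 CPM in ex-Foxp3 libraries, which overlap, and the difference was not called (-1.29 ± 0.47, adjusted p = 0.157). It was called lower in the fits with no count filter, without number 2 and with numbers 1 to 3 alone. In controls Uhrf1 stood at 11.3 to 104 CPM (median 59.2) in labeled and 7.28 to 34.1 CPM (median 16.2) in ex-Foxp3 cells. Uhrf1 is an S phase gene, and its labeled values split by number as the G2/M sum did.

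In all, 1000 of 9148 genes tested were called (10.9%), 412 higher in ex-Foxp3 cells (4.50%) and 588 lower (6.43%). Most changes were moderate, with a median size of 0.52 on the log2 scale, and 54 called genes rose and 154 fell by more than 1. The median over all genes tested was 0.0023. The direction was the same in all 6 pairs for 775 of the 1000. Labeled and ex-Foxp3 levels did not overlap for 265 genes (2.90% of those tested), 237 of them called. The count rested on the pairing and on which numbers were in the fit. Without the block 437 of 9148 genes were called, 183 higher and 254 lower. Without number 2 662 were called, and with numbers 4 to 6 alone 267, of which 235 were among the 1000 (the fits share libraries). With numbers 1 to 3 alone 4.66% of genes tested were called higher and 7.74% lower, and with numbers 4 to 6 alone 1.21% higher and 1.68% lower, so a list's counts in these fits are to be read beside these shares.

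**Figure D1:**
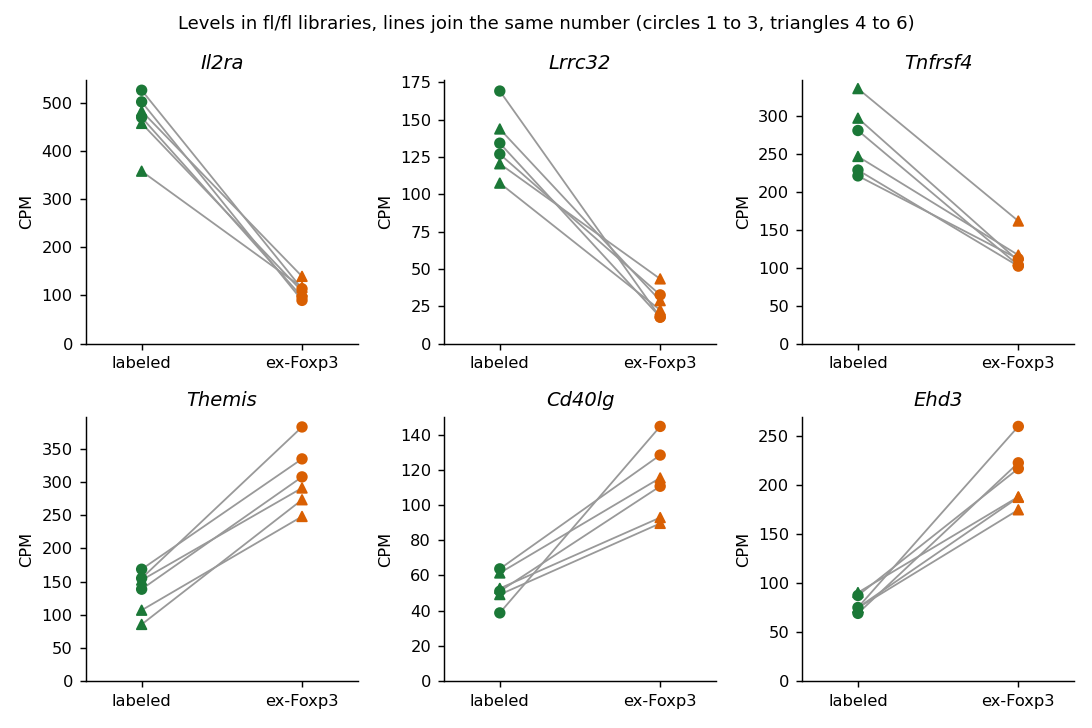
Levels (CPM, axis from 0) of 6 genes in the fl/fl libraries. Each line joins the labeled and ex-Foxp3 libraries of 1 number, with circles for numbers 1 to 3 and triangles for 4 to 6; Il2ra, Lrrc32 and Tnfrsf4 were lower in ex-Foxp3 cells in 6 of 6 pairs, and Themis, Cd40lg and Ehd3 higher in 6 of 6.

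The genes that define Treg cells were the list with the most members called lower. Of 28 tested, 23 fell and 0 rose, with a median of -1.02, beside 6.43% of all genes called lower. Foxp3, on which the cells were gated, is among the 23 and adds no support to the count. In bulk libraries fewer cells of a type and less RNA per cell cannot be told apart. Il2ra, the IL-2 receptor alpha chain CD25, was at 358 to 526 CPM (median 476) in labeled and 89.6 to 139 CPM (median 111) in ex-Foxp3 cells. It fell by 2.07 ± 0.09 (adjusted p = 4.80e-17), and no ex-Foxp3 library reached the lowest labeled one. Lrrc32, the surface anchor of latent TGF-beta, was at 107 to 169 CPM (median 131) and 17.7 to 43.3 CPM (median 25.6), and fell by 2.31 ± 0.18 (adjusted p = 9.71e-08). Itgae, the CD103 integrin chain, had levels of 164 to 434 CPM (median 244) and 48.1 to 170 CPM (median 55.9), which overlap across numbers although it was lower in each of the 6 pairs. It fell by 1.76 ± 0.10 (adjusted p = 2.37e-15). Ctla4, the inhibitory receptor that Treg cells use to remove costimulatory ligands, was at 184 to 294 CPM (median 229) and 83.5 to 135 CPM (median 115) and fell by 1.07 ± 0.12 (adjusted p = 1.04e-05). Rgs1, a regulator of G protein signalling, fell by 1.21 ± 0.10, and Tigit, an inhibitory receptor, fell by 0.75 ± 0.10, both lower in 6 of 6 pairs.

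Ikzf2, which encodes Helios, was the most abundant member that was not called. It was at 1746, 1595, 1329, 1445, 1534 and 1518 CPM in labeled libraries 1 to 6 and at 636, 961, 651, 1252, 1192 and 1567 CPM in ex-Foxp3 libraries (-0.62 ± 0.22, adjusted p = 0.174). Ex-Foxp3 libraries 1 and 3 were the lowest, and number 6 had more in ex-Foxp3 than in labeled cells. Plagl1, an imprinted zinc finger gene, was also not called (-0.98 ± 0.41, adjusted p = 0.125). Tnfrsf9, the costimulatory receptor 4-1BB, was called at -1.95 ± 0.41 (adjusted p = 0.0389), but the call was lost without number 2, 3, 5 or 6. The summed level of the 28 genes, Foxp3 included, ran from 7052 to 8317 CPM in labeled and from 3379 to 5254 CPM in ex-Foxp3 libraries. With numbers 1 to 3 alone 24 of 28 fell (median -1.12), and with numbers 4 to 6 alone 19 of 28 (median -0.70).

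IL-2 binds a receptor of Il2ra, Il2rb and Il2rg chains and signals through Jak kinases to STAT5, which induces feedback genes. In this list 7 of 15 tested genes fell and 0 rose (median -0.21), beside 6.43% and 4.50% of all genes. Il2rb was at 568 to 799 CPM (median 693) in labeled and 373 to 571 CPM (median 489) in ex-Foxp3 cells, and fell by 0.48 ± 0.06 (adjusted p = 1.10e-06). Cish, a STAT5-induced inhibitor of the receptor, was at 190 to 360 CPM (median 269) and 100 to 205 CPM (median 143), and fell by 0.89 ± 0.09 (adjusted p = 1.27e-09). Pim1, a STAT5-induced kinase, fell by 0.82 ± 0.09 (adjusted p = 3.12e-08). Both groups overlapped for Cish and Pim1, and each was lower in 6 of 6 pairs.

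TNF receptor genes, which carry costimulation to Treg cells, showed 6 of 17 lower and 1 higher (median -0.23), beside 6.43% and 4.50% of all genes. Tnfrsf4, the OX40 receptor, was at 221 to 336 CPM (median 263) in labeled and 102 to 161 CPM (median 110) in ex-Foxp3 cells, and fell by 1.20 ± 0.09 (adjusted p = 8.68e-13). Tnfrsf18, known as GITR, fell by 0.86 ± 0.09 (adjusted p = 8.26e-09), Tnfrsf1b, the TNF receptor TNFR2, fell by 0.84 ± 0.08 (adjusted p = 3.00e-10), and the 3 genes had no overlap between groups. Tnfrsf8, known as CD30, was low throughout, at 16.1 to 33.1 CPM (median 25.5) and 1.69 to 14 CPM (median 4.27), and fell by 2.07 ± 0.30 (adjusted p = 5.28e-06). Tnfrsf26 was the 1 member called higher (0.57 ± 0.16, adjusted p = 0.0132), and that call was lost without the block or without number 5.

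Of effector Treg genes 17 of 29 were called lower and 3 higher (median -0.34), beside 6.43% and 4.50% of all genes. Without the block 8 of 29 were lower (median -0.36), with numbers 1 to 3 alone 17 of 29 (median -0.36) and with numbers 4 to 6 alone 8 of 28 (median -0.27). Klrg1, a receptor of terminally differentiated effector cells, was at 10.1 to 68.2 CPM (median 34.5) in labeled and 0.775 to 18.1 CPM (median 7.09) in ex-Foxp3 cells, and fell by 2.22 ± 0.26 (adjusted p = 8.20e-08). Gzmb, the cytotoxic protease granzyme B, was at 6.62 to 229 CPM (median 106) and 1.16 to 40.2 CPM (median 26.9), and fell by 2.14 ± 0.18 (adjusted p = 1.12e-10). The groups overlapped for both genes, each was lower in 6 of 6 pairs, and both calls were lost without the block. Il1rl1, the IL-33 receptor ST2, was at 147 to 291 CPM (median 228) and 56.4 to 134 CPM (median 71), without overlap, and fell by 1.45 ± 0.16 (adjusted p = 1.57e-04). Prdm1, the transcription factor Blimp-1, fell by 0.93 ± 0.13. The 3 members that rose were Id2, an inhibitor of E proteins, Cd44, the adhesion receptor of antigen-experienced cells, and Itgb1, an integrin chain. Id2 was at 79.5 to 147 CPM (median 129) and 138 to 419 CPM (median 243), and rose by 1.11 ± 0.14 (adjusted p = 1.82e-04). Its ex-Foxp3 level was highest in numbers 1 and 3. Cd44 rose by 0.46 ± 0.08 without overlap (adjusted p = 3.68e-05), and Itgb1 rose by 0.53 ± 0.10 (adjusted p = 0.00709). Without the block Cd44 was the 1 member called higher, and the calls of Id2 and Itgb1 were lost.

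**Figure D2:**
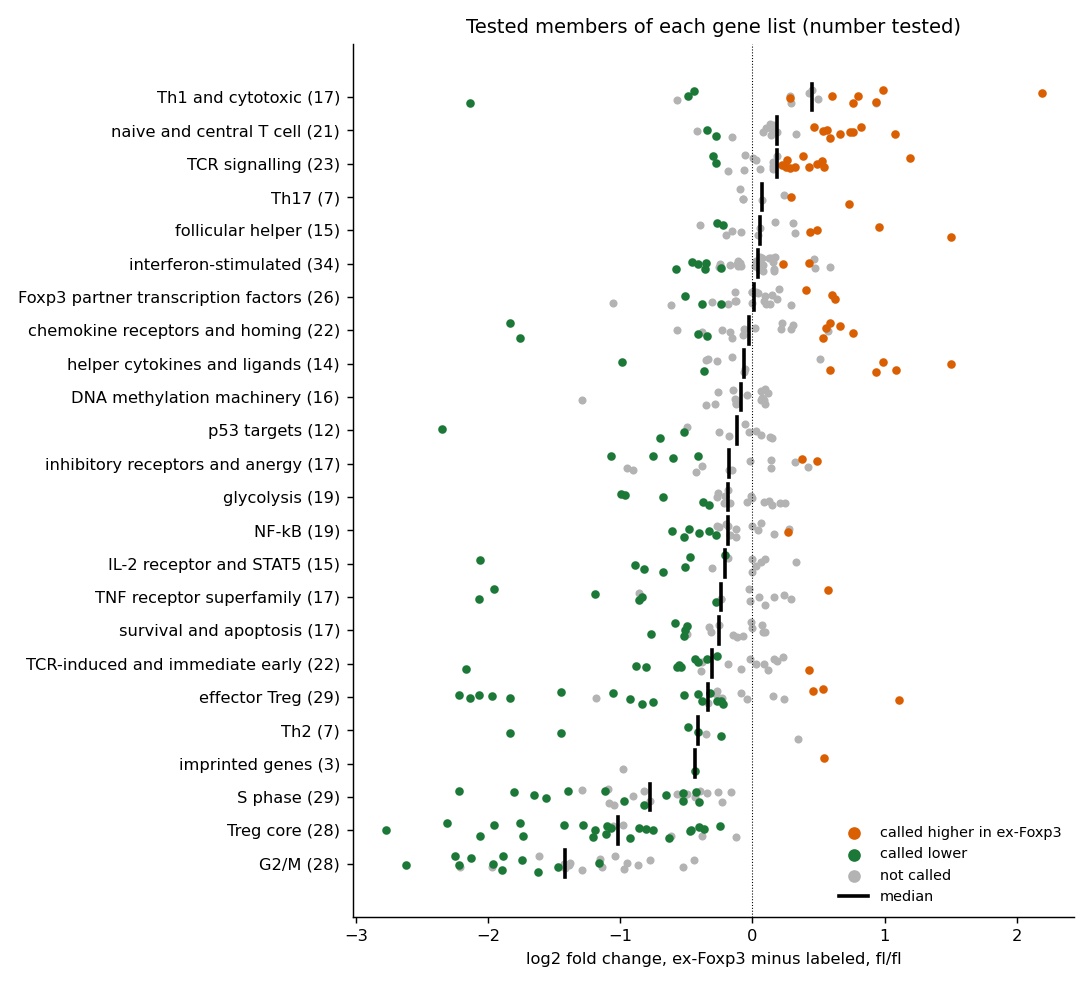
Log2 fold change, ex-Foxp3 minus labeled, of every tested member of each gene list in fl/fl mice, with the number tested in brackets, points coloured by call and the black bar at the median. The medians run from -1.42 for G2/M and -1.02 for Treg core genes to 0.45 for Th1 and cytotoxic genes; the vertical scatter of points is for legibility.

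Genes of naive and central memory T cells, which recirculate through lymphoid tissue, showed 9 of 21 higher and 2 lower (median 0.19), beside 4.50% of all genes called higher. The count higher was 10 of 21 with numbers 1 to 3 alone and 7 of 21 with numbers 4 to 6 alone. Tcf7, the transcription factor TCF-1, was at 525 to 983 CPM (median 713) in labeled and 1354 to 1832 CPM (median 1511) in ex-Foxp3 cells, and rose by 1.08 ± 0.11 without overlap (adjusted p = 1.31e-04). Actn1, an actin crosslinker, was at 72.4 to 142 CPM (median 98) and 142 to 184 CPM (median 176), and rose by 0.76 ± 0.11 (adjusted p = 5.45e-06). S1pr1, the receptor by which T cells leave lymph nodes, rose by 0.59 ± 0.07 (adjusted p = 3.44e-07). Klf2, the factor that drives S1pr1 transcription, rose by 0.54 ± 0.07 (adjusted p = 1.61e-06). The S1pr1 and Klf2 calls were lost without the block, a fit with 6 of 21 list members higher and 0 lower. Lef1 and Ets1, the most abundant members not called, gave 0.16 ± 0.08 and 0.10 ± 0.05. Cd27, a costimulatory receptor, was among those that fell (-0.28 ± 0.09, adjusted p = 0.0356). It was higher in ex-Foxp3 cells in 1 of 6 pairs, and its call was lost with DESeq2, without the block, and without number 1, 3 or 4.

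Genes of T cell receptor (TCR) signalling rose in 11 of 23 members and fell in 2 (median 0.19), beside 4.50% and 6.43% of all genes. Without the block 7 of 23 rose and 1 fell. The fit of numbers 1 to 3 alone called 12 of 23 higher (median 0.27), and that of numbers 4 to 6 alone 5 of 23 (median 0.05). Themis, a T cell adaptor needed for thymocyte selection, was at 85.3 to 169 CPM (median 145) in labeled and 248 to 384 CPM (median 300) in ex-Foxp3 cells, and rose by 1.20 ± 0.09 without overlap (adjusted p = 8.70e-13). Cd4, the coreceptor, was at 762 to 989 CPM (median 881) and 1151 to 1284 CPM (median 1223), again without overlap, and rose by 0.49 ± 0.06 (adjusted p = 2.00e-07). Cd28, the costimulatory receptor, rose by 0.43 ± 0.07 (adjusted p = 6.93e-05). Cd2 and Cd3d, an adhesion receptor and a chain of the TCR complex, were the 2 that fell (-0.30 ± 0.06 and -0.28 ± 0.08), the latter a call lost without number 1, 2 or 3.

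Genes that TCR signals switch on were called lower in 10 of 22 members and higher in 1 (median -0.31), beside 6.43% and 4.50% of all genes. DESeq2 called 6 of 22 lower. Jund, an AP-1 factor, was at 316 to 533 CPM (median 397) in labeled and 178 to 431 CPM (median 261) in ex-Foxp3 cells, and fell by 0.56 ± 0.08 (adjusted p = 1.84e-06). Myc was at 44.3 to 76.8 CPM (median 62.6) and 25.8 to 42.1 CPM (median 34.6), without overlap, and fell by 0.88 ± 0.15 (adjusted p = 6.64e-05). Nr4a2, an orphan nuclear receptor, was low in all libraries, at 5.81 to 17.2 CPM (median 10.8) and 0 to 7.01 CPM (median 2.01), and was lower in 6 of 6 pairs (adjusted p = 7.57e-04). Btg2, an antiproliferative gene, was the 1 that rose (0.43 ± 0.08, adjusted p = 2.17e-04). NF-kB genes fell in 6 of 19 and rose in 1 (median -0.19), beside the same shares. Nfkb2, the subunit of the alternative pathway, fell by 0.61 ± 0.10, and Nfkbia, the inhibitor of NF-kB that it induces, fell by 0.40 ± 0.08. Ikbkb, a kinase of the pathway, was the 1 higher (0.27 ± 0.08), a call lost without number 1, 2 or 3. Without the block 2 of 22 induced genes fell, Myc and Nr4a2, and 1 rose, Btg2. In that fit 3 of 19 NF-kB genes fell and 0 rose, and the calls of Jund and Nfkbia were lost. With numbers 4 to 6 alone, 2 of 23 induced genes and 1 of 19 NF-kB genes fell, against 8 of 22 and 5 of 19 with numbers 1 to 3 alone, beside 1.68% and 7.74% of all genes called lower in those fits.

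Ligands and cytokines by which helper cells act showed 5 of 14 higher and 2 lower (median -0.06), beside 4.50% and 6.43% of all genes. In numbers 1 to 3 alone 3 of 13 were higher (median 0.29), and in numbers 4 to 6 alone 3 of 14 (median 0.08). Cd40lg, which licenses B cells and dendritic cells through CD40, was at 38.6 to 63.7 CPM (median 51.7) in labeled and 89.5 to 145 CPM (median 113) in ex-Foxp3 cells, and rose by 1.09 ± 0.13 without overlap (adjusted p = 6.10e-08). Tnfsf8, the ligand of CD30, was at 155 to 226 CPM (median 183) and 259 to 304 CPM (median 275), and rose by 0.59 ± 0.08 (adjusted p = 1.65e-06). Il21, a cytokine of follicular helper cells, was at 2.07 to 9.73 CPM (median 6.83) and 9.06 to 31.8 CPM (median 17.8), and rose by 1.51 ± 0.33 (adjusted p = 0.00176). Ifng, the interferon gamma gene, rose by 0.99 ± 0.29 (adjusted p = 0.0177) and Fasl, a death receptor ligand, rose by 0.93 ± 0.31 (adjusted p = 0.0483), from low levels of 4.92 to 13.2 CPM (median 7.71) and 0.958 to 14.8 CPM (median 10.2) in labeled cells. The Ifng call was lost without number 2 and the Fasl call without number 1, 3, 4 or 6, and both were lost without the block. Tgfb1, a suppressive cytokine, fell by 0.37 ± 0.08, and Lta, lymphotoxin alpha, fell by 0.99 ± 0.25.

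Of 27 listed genes of Th1 and cytotoxic cells 17 were tested. Of these 7 rose and 3 fell, beside 4.50% and 6.43% of all genes, and their median was the highest of the lists (0.45). Tbx21, the T-bet factor of Th1 cells, was at 22.2 to 47.1 CPM (median 40.8) in labeled and 36.8 to 82.5 CPM (median 61.4) in ex-Foxp3 cells, and rose by 0.80 ± 0.15 (adjusted p = 1.84e-04). Cxcr6, a chemokine receptor of tissue Th1 cells, was at 92.1, 51.4, 54.4, 28.7, 29.8 and 17.1 CPM in labeled libraries 1 to 6 and at 137, 68.3, 156, 38.4, 58.2 and 23.6 CPM in ex-Foxp3 libraries, higher in 6 of 6 pairs. It rose by 0.76 ± 0.15 (adjusted p = 3.08e-04), and numbers 1 and 3 had the highest ex-Foxp3 levels. Runx3, which cooperates with T-bet, rose by 0.60 ± 0.10 (adjusted p = 3.14e-05), and Stat4, the IL-12 signal transducer, rose by 0.29 ± 0.08. Eomes, a T-box factor near 0 in labeled cells (0 to 8.43 CPM, median 1.22), was at 4.54 to 11.8 CPM (median 9.32) in ex-Foxp3 cells (2.19 ± 0.52, adjusted p = 0.0038). Apart from number 1, labeled libraries held at most 3.13 CPM of Eomes. It passed the count filter chiefly through the ex-Foxp3 libraries, where it is high, so it adds no support to the count. The receptors for IL-18, Il18r1 and Il18rap, were not called (0.50 ± 0.18 and 0.45 ± 0.15). Those that fell were Gzmb, Hopx (-0.45 ± 0.15), a homeobox cofactor, and Il12rb1 (-0.49 ± 0.13), a receptor chain for IL-12. The call of Hopx was lost without number 2, 4, 5 or 6, by DESeq2 and without the block. That of Il12rb1 was lost without number 2 or 3 and without the block, and that of Stat4 without number 3. Without the block the calls of Cxcr6, Runx3 and Eomes were also lost. In that fit 2 of 17 rose, Tbx21 and Stat4, and 0 fell. The Cxcr6 and Runx3 calls were lost with numbers 4 to 6 alone too, and the Eomes call with numbers 1 to 3 alone. With numbers 1 to 3 alone 6 of 18 rose, and with numbers 4 to 6 alone 2 of 17, beside 4.66% and 1.21% of all genes called higher in those fits. NK cell markers summed to 9.15 CPM in ex-Foxp3 library 1, where Eomes was at 11.8 CPM; their part in the result was not tested.

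Th2 genes fell in 5 of 7 and rose in 0 (median -0.41), beside 6.43% and 4.50% of all genes, and without the block 3 of 7 fell. Gata3, the factor of Th2 cells and of many Treg cells, fell by 0.23 ± 0.07, a call lost without number 2, 3, 4 or 5. Ccr8, a chemokine receptor, fell by 1.84 ± 0.29, Il4ra, an IL-4 receptor chain, fell by 0.49 ± 0.09 and Ccr4, another chemokine receptor, fell by 0.41 ± 0.14 (lost without number 2, 3, 5 or 6), with Il1rl1 the fifth. Th17 genes rose in 2 of 7, beside 4.50% of all genes called higher. Il6ra, the IL-6 receptor, rose by 0.73 ± 0.10 (adjusted p = 8.03e-07). Il6st, its signalling partner, rose by 0.29 ± 0.08, a call lost without number 2.

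Follicular helper genes rose in 4 of 15 and fell in 2 (median 0.06), beside 4.50% and 6.43% of all genes. Without the block 3 of 15 rose and 0 fell. In numbers 1 to 3 alone edgeR called 0 of 15 higher and 3 lower, Icos, Maf and Tox (median -0.06), and with numbers 4 to 6 alone 4 higher, Btla, Cxcr5, Il21 and Rnf19a, and 0 lower (median 0.19). Those higher were Il21, Btla, an inhibitory receptor (0.49 ± 0.10), Rnf19a (0.43 ± 0.09) and Pou2af1 (0.96 ± 0.27), and those lower were Icos, a costimulatory receptor (-0.27 ± 0.07), and Maf, a transcription factor (-0.23 ± 0.06, lost without number 1 or 3). Pdcd1, the PD-1 receptor, and Tox were the most abundant of the list not called (-0.15 ± 0.16 and -0.20 ± 0.16). Genes of inhibition and anergy rose in 2 of 17 and fell in 4 (median -0.18), beside 4.50% and 6.43% of all genes. Dgka, a brake on TCR signalling, was at 855 to 1097 CPM (median 1053) in labeled and 1258 to 1397 CPM (median 1335) in ex-Foxp3 cells, and rose by 0.37 ± 0.06 without overlap (adjusted p = 1.38e-05), and Btla was the other. Those lower were Tigit, Ctla4, Nrn1 (-0.60 ± 0.16) and Egr2, a factor of anergy (-0.42 ± 0.13, a call held by only 1 of the 6 fits that leave out a number). Of 22 chemokine receptors and homing genes 5 rose and 4 fell (median -0.02), beside 4.50% and 6.43% of all genes. S1pr1, Itga4, an integrin chain (0.56 ± 0.07), Cxcr6, Ccr7, the lymph node chemokine receptor (0.66 ± 0.14), and Itgb1 were higher. Itgae, Ccr8 and Ccr4 were among the lower. Without the block 2 of 22 rose, Itga4 and Ccr7, and 2 fell, Itgae and Ccr8.

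Among transcription factors known to work with Foxp3, 3 of 26 were called higher and 3 lower (median 0.01), beside 4.50% and 6.43% of all genes. Without the block 2 rose, Ikzf1 and Nfatc3, and 0 fell. With numbers 1 to 3 alone 4 rose and 5 fell, and with numbers 4 to 6 alone 2 rose and 1 fell. Ikzf1, the founding Ikaros factor, was at 277 to 397 CPM (median 327) in labeled and 393 to 690 CPM (median 485) in ex-Foxp3 cells, and rose by 0.63 ± 0.07 (adjusted p = 2.48e-08). Nfatc3, which carries calcium signals, rose by 0.41 ± 0.06, and Runx3 was the third that rose. Those that fell were Smad3, a TGF-beta signal transducer (-0.51 ± 0.10), Ikzf3, the Aiolos factor (-0.38 ± 0.09), and Gata3. The calls of Runx3, Smad3, Ikzf3 and Gata3 were lost without the block and with numbers 4 to 6 alone.

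Of the DNA methylation machinery 0 of 16 genes were called by edgeR or by DESeq2 (median -0.08), and 2 and 1 were at an unadjusted p under 0.05. The edgeR share over all genes was 10.9%. With no count filter edgeR called Dnmt1 and Uhrf1 lower, without number 2 Uhrf1, and without number 5 Dnmt1. With numbers 1 to 3 alone 3 fell, Dnmt1, Uhrf1 and Hells, a chromatin remodeler (median -0.11), and with numbers 4 to 6 alone edgeR called 0 of 16, with 0 at an unadjusted p under 0.05. Dnmt1, the enzyme that Uhrf1 recruits, was at 531, 447, 490, 262, 256 and 294 CPM in labeled libraries 1 to 6 and at 351, 307, 312, 292, 296 and 279 CPM in ex-Foxp3 libraries (-0.26 ± 0.12, adjusted p = 0.212). Labeled libraries 1 to 3 were the highest, and 4 to 6 lay with the ex-Foxp3 libraries. Of 21 germline genes, which promoter methylation keeps silent in somatic cells, 0 were tested because none passed the count filter. They summed to 4.70 to 14.2 CPM in labeled and 2.06 to 6.21 CPM in ex-Foxp3 libraries, and 14 of the 21 had no read in any labeled and 17 in any ex-Foxp3 library. Of imprinted genes 3 of 19 were tested, with 1 higher (Impact, 0.54 ± 0.17) and 1 lower (Igf2r, -0.43 ± 0.10), and both calls were lost without the block (Impact also without number 1, 2 or 3). Interferon-stimulated genes fell in 6 of 34 and rose in 2 (median 0.04), beside 6.43% of all genes called lower and 4.50% higher, and with numbers 4 to 6 alone 3 of 34 fell (Gbp7, Igtp and Ly6e) and 0 rose. Among those that fell over all 6 numbers were Gbp7, a guanylate-binding protein (-0.58 ± 0.08), and Igtp (-0.46 ± 0.08). The 2 that rose were Ly6a (0.42 ± 0.11) and Sp100 (0.23 ± 0.06), and both calls were lost without number 3 and without the block (Sp100 also without number 2).

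Genes of cell division were called lower in ex-Foxp3 cells, with wide gaps in numbers 1 to 3 and overlapping levels in numbers 4 to 6. Of G2/M genes 11 of 28 fell and 0 rose (median -1.42), and of S phase genes 13 of 29 fell and 0 rose (median -0.77). These counts stand beside 6.43% of all genes called lower. Without the block edgeR called 1 of 28 G2/M genes lower, Cdk1 (list median -1.85), and 3 of 29 S phase genes (list median -0.95). With a filter of 50 counts it called 0 of 7 G2/M genes, with 4 at an unadjusted p under 0.05, and 9 of 17 S phase genes fell. With no count filter edgeR called 20 of 32 G2/M genes and 24 of 34 S phase genes lower. The G2/M sum was 5046, 3045 and 4000 CPM in labeled libraries 1 to 3 and 1011, 841 and 1256 CPM in their ex-Foxp3 partners. In numbers 4 to 6 it was 429, 543 and 552 CPM in labeled and 443, 480 and 503 CPM in ex-Foxp3 cells, so the groups overlapped. With numbers 1 to 3 alone all 32 G2/M genes tested fell (median -2.23) and 29 of 33 S phase genes (median -1.48). With numbers 4 to 6 alone edgeR called 0 of 23 G2/M genes, with 3 at an unadjusted p under 0.05 (median 0.08), and 1 of 26 S phase genes fell (median -0.10).

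Among single genes, Top2a and Mki67, markers of dividing cells, were lower in 6 of 6 pairs but not called over all 6 numbers (-1.29 ± 0.42 and -0.97 ± 0.36). Mki67 was at 1694, 1125, 1340, 182, 211 and 196 CPM in labeled libraries 1 to 6 and at 422, 346, 524, 177, 185 and 179 CPM in ex-Foxp3 libraries. Rrm2, a subunit of the enzyme that makes deoxynucleotides, was at 8.62 to 131 CPM (median 52.9) and 2.48 to 22.4 CPM (median 11.2), and fell by 2.23 ± 0.21 (adjusted p = 4.19e-10), lower in 6 of 6 pairs. Its call was lost without the block (adjusted p = 0.130) and with numbers 4 to 6 alone (-1.55, adjusted p = 0.117). Mcm3, part of the replicative helicase, showed no overlap (89.8 to 221 CPM, median 135, against 49.6 to 81.1 CPM, median 64.3), gave -1.12 ± 0.15, and its call held in numbers 4 to 6 alone. Replication-dependent histone genes headed the falls: Hist1h3b fell by 3.47 ± 0.39, Hist1h2bb fell by 3.28 ± 0.32 and Hist1h2af fell by 3.15 ± 0.47. With numbers 4 to 6 alone none of the 3 was called (-1.94, -1.91 and -1.07, with edgeR's adjusted p from 0.0980 to 0.555), and the call of Hist1h2af was also lost without the block. These histone genes have near-identical copies, so how reads were shared among them is uncertain. Among genes of glycolysis 5 of 19 fell (median -0.19), of survival and apoptosis 5 of 17 (median -0.25) and of p53 targets 3 of 12 (median -0.12). The share over all genes called lower was 6.43%. Without the block 3 of 19, 1 of 17 and 2 of 12 of these genes fell. With numbers 4 to 6 alone edgeR called 1 of 19, 0 of 17 and 0 of 12 of these lower, with 3 and 4 of the last lists at an unadjusted p under 0.05. The glycolysis genes were Slc2a3, a glucose transporter (-0.67 ± 0.12), Hk2, which traps glucose (8.62 to 19.4 CPM, median 15, in labeled and 5.42 to 9.06 CPM, median 6.66, in ex-Foxp3 cells), and the enzymes Tpi1 (-0.96 ± 0.18), Gapdh (-0.38 ± 0.09) and Pkm (-0.33 ± 0.07). Among the survival genes were Bcl2l1, which protects from apoptosis (-0.50 ± 0.14), Bid (-0.59 ± 0.19), Pmaip1 (-0.52 ± 0.17) and Bcl2a1b (-0.51 ± 0.15), which has near-identical copies. The p53 targets were Gtse1 (-2.35 ± 0.42), Sesn1 (-0.70 ± 0.15) and Pmaip1. The calls of Pmaip1, Bid, Bcl2a1b, Bcl2l1 and Hk2 were each lost without 1 or more of the numbers.

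**Figure D3:**
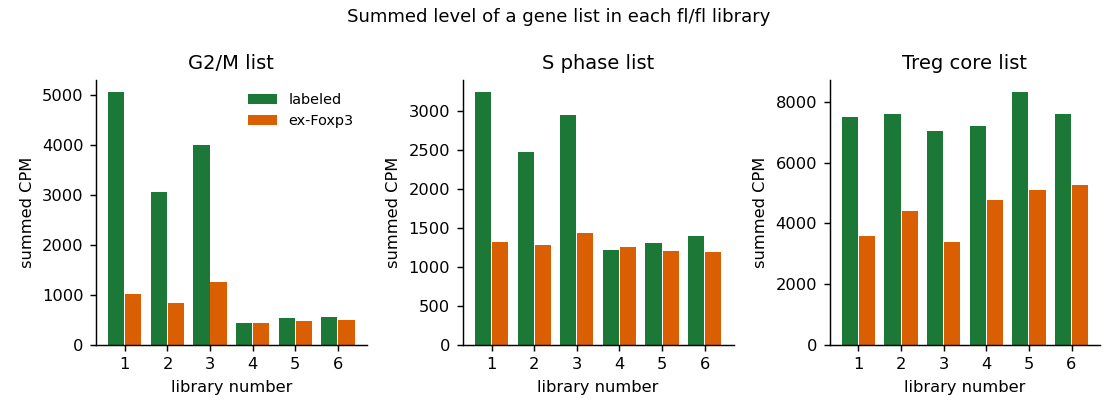
Summed CPM (axis from 0) of the G2/M, S phase and Treg core lists in each fl/fl library, by library number. Labeled libraries 1 to 3 stand between 3045 and 5046 CPM for G2/M genes and 4 to 6 between 429 and 552. The Treg core sum, which includes the gated gene Foxp3, is lower in ex-Foxp3 cells at every number.

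Outside the lists, the largest gains among well-measured genes were of several kinds. Slc26a11, an anion transporter, was at 8.69 to 16.2 CPM (median 13.2) in labeled and 32.6 to 43.6 CPM (median 38.2) in ex-Foxp3 cells, and rose by 1.63 ± 0.20 without overlap (adjusted p = 1.23e-07). Tgfbr3, the TGF-beta coreceptor betaglycan, was at 11.9 to 48.3 CPM (median 31) and 61.5 to 119 CPM (median 94.6), and rose by 1.61 ± 0.32 (adjusted p = 0.0229), a call lost without number 3 or 5. Ehd3, a membrane trafficking ATPase, was at 68.9 to 90.1 CPM (median 74.8) and 174 to 260 CPM (median 202), and rose by 1.40 ± 0.10 (adjusted p = 8.07e-13). Rapgef4, a cyclic AMP-activated exchange factor, was at 8.28 to 11.7 CPM (median 9.41) and 18.1 to 41.1 CPM (median 29.6), and rose by 1.57 ± 0.22. Vipr1, the receptor for vasoactive intestinal peptide, was at 10.8 to 30.4 CPM (median 22.8) and 25.2 to 93.9 CPM (median 63.2), and rose by 1.48 ± 0.16. Emp1, a membrane protein, Hs3st3b1, a heparan sulfate sulfotransferase, Mboat1, a lipid acyltransferase, Nqo2, a quinone reductase, and Nebl, an actin-binding protein, rose by 1.41 to 1.57. Cd22, a B cell marker, was at 12.6 to 35 CPM (median 16.3) and 31.8 to 52 CPM (median 40.9) and was called higher (1.08 ± 0.19), while Cd79b, another, was called lower (-1.40 ± 0.40), a call lost without number 2, 4 or 5. Epcam, an epithelial adhesion gene, was called lower without overlap (-1.74 ± 0.28).

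In controls the same contrast called 499 of 9129 genes (5.47%), 203 higher (2.22%) and 296 lower (3.24%). The contrasts share no library. Of the 1000 genes called in fl/fl mice 976 were tested in controls, where 935 had the same sign and 344 were called, which is 34.4% of the fl/fl calls and 68.9% of the control calls. The Treg core list fell in 22 of 28 genes in controls (median -0.81) against 23 of 28 in fl/fl mice, with the gated gene Foxp3 in both counts. Th1 and cytotoxic genes rose in 2 of 17 and fell in 3 (median 0.26), TCR signalling genes rose in 9 of 23 (median 0.12), TCR-induced genes fell in 1 of 22 (median -0.10), and G2/M genes fell in 13 of 25 (median -1.09). Foxp3 itself gave -1.93 ± 0.11 in controls, where ex-Foxp3 cells held 79.2 to 151 CPM (median 107).

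**Figure D4:**
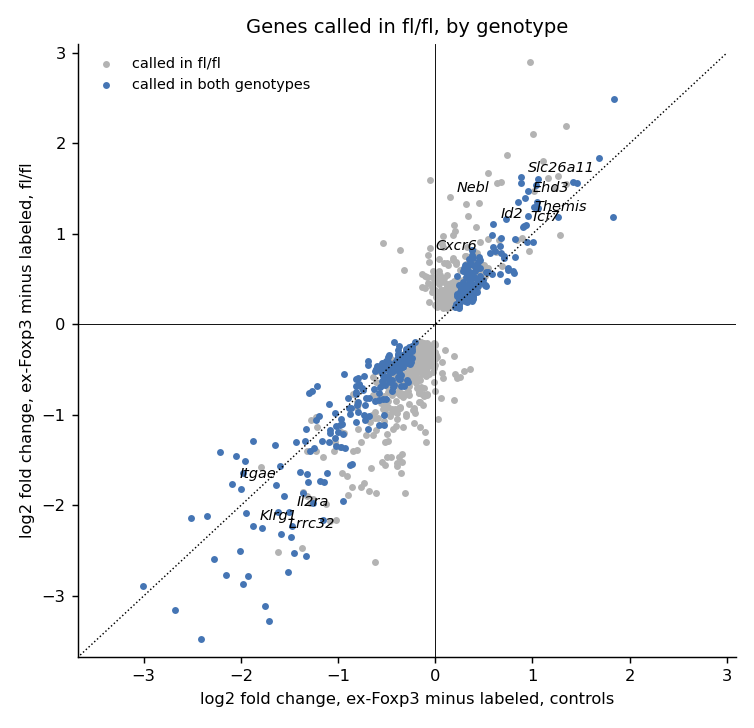
Log2 fold change, ex-Foxp3 minus labeled, of the genes called in fl/fl mice and tested in controls: fl/fl on the vertical axis, controls on the horizontal, blue where called in both. Of 976 points, 935 lie in the lower left or upper right, and the dotted line marks equal change.

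The test of the genotype difference, fl/fl minus control, called 1 of 9613 genes (0.0104%). At an unadjusted p under 0.05 were 469 of the 9613, near the share that this threshold gives where no gene differs. Only the control group held libraries with high Y-linked sums (numbers 2 and 3), and a part of sex in the difference was not tested. The 1 called was Gcnt1, the enzyme that branches core 2 O-glycans, which P-selectin ligands need. Gcnt1 was at 61.1, 36.6, 29.6, 42.2, 29 and 26.9 CPM in labeled fl/fl libraries 1 to 6 and at 91.3, 68.7, 47.2, 36.2, 21 and 40.7 CPM in ex-Foxp3 libraries, higher in 4 of 6 pairs (0.38 ± 0.17, adjusted p = 0.143). In controls it was at 20.0 to 38.8 CPM (median 23) in labeled and 9.10 to 14 CPM (median 12.9) in ex-Foxp3 cells (-1.10 ± 0.23, adjusted p = 0.00188), lower in 5 of 5. The difference was 1.49 ± 0.28 (adjusted p = 0.0236), and it was lost without the block, or without number 1, 2 or 3 of either genotype.

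Other genes with a low unadjusted p failed the adjustment and are given as values. Il2ra gave -2.07 in fl/fl mice and -1.50 in controls, a difference of -0.56 ± 0.12 (unadjusted p = 4.91e-05, adjusted p = 0.236). Nebl rose in fl/fl mice (1.41) and gave 0.15 in controls (difference 1.26 ± 0.30, adjusted p = 0.527). Cxcr6 gave 0.76 against -0.076 (difference 0.84 ± 0.23, adjusted p = 0.527), and Il18rap 0.45 against -0.36 (difference 0.81 ± 0.22, adjusted p = 0.543). Ehd3 rose in both genotypes, by 1.40 and 0.92 (difference 0.48 ± 0.14, adjusted p = 0.527). These genes were chosen after their values were seen.

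**Figure D5:**
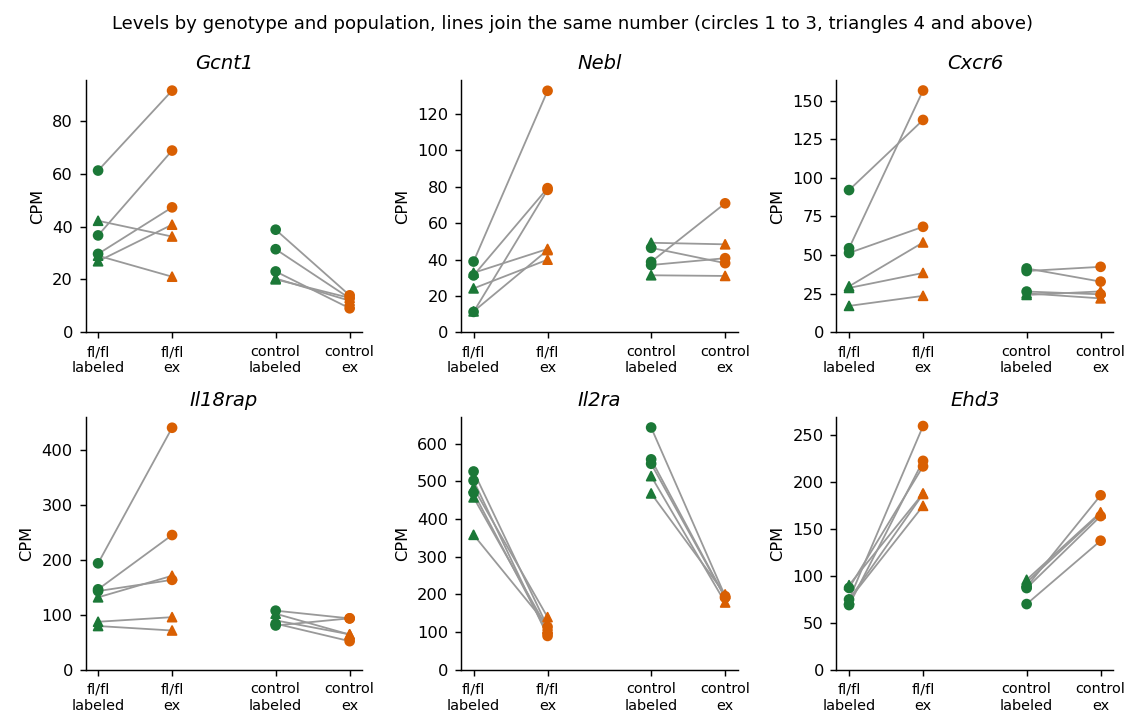
Levels (CPM, axis from 0) of 6 genes in labeled and ex-Foxp3 cells of fl/fl mice (6 numbers) and controls (5 numbers), with lines joining libraries of the same number. Scaling factors were set separately for each genotype. Gcnt1 is lower in ex-Foxp3 cells in 5 of 5 control pairs and higher in 4 of 6 fl/fl pairs; Il2ra falls and Ehd3 rises in every pair of both genotypes.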

How the data were processed

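RNA of flow-sorted cells was taken with an AllPrep kit and libraries were made with a SMARTer stranded total RNA kit, per the labels' protocols. The authors deposited whole-number counts, not normalized, of 19434 genes in 41 libraries; bcl2fastq 2.17.1.14 and TopHat2 2.1.0 with mm10 (GRCm38) are named in the submitters' processing notes. The annotation, strand and counting settings are not given in the sources used here, so sense and antisense reads of overlapping genes could not be separated. Symbols are those of the table, since 3411 identifiers carry another symbol in GENCODE. All 41 columns matched a library.

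Tests used edgeR 4.0.16 (R 4.3.3): TMM factors, the default count filter by group, robust quasi-likelihood F-tests, 2-sided, with p adjusted by Benjamini-Hochberg across every gene tested and a threshold of 0.05. SE is the absolute log2 fold change over the root of F. The control contrast (10 libraries) and the genotype difference (22 libraries, number within genotype as block) were fitted the same way. Library number was the block: same-numbered fl/fl libraries correlated at 0.159 to 0.374 in their deviations from group means (controls 0.144 to 0.295), although nothing in the labels ties a number to a mouse, and fl/fl number 2 correlated better with another number (0.209) than with its own (0.159). No pair of libraries in a group agreed within sampling noise. The pipeline was tested on simulated data.

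Named genes are Foxp3 and Uhrf1, the 10 largest called changes in each direction whose mean log2 CPM reached 4 and whose sign was the same in all pairs, up to 4 called and 2 uncalled members of each list, and genes called for the genotype difference. Others, among them Id2, Tcf7, Eomes, Ifng, Cd44, Ccr7 and Cd22, lie outside that rule and were picked once their values had been seen. Some genes that the rule takes are not reported here. The members and lists were chosen with earlier results of these data known. The planned CpG comparison of called genes was void, because 78.4% of higher and 77.6% of lower genes had a promoter entry, under the minimum of 80%. Alternatives were RLE and upper quartile factors, other count filters (none, or 50 counts), DESeq2 1.42.0, no block, all 33 pulse-chase libraries, each number left out, and numbers 1 to 3 or 4 and above alone.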

Additional observations from a re-analysis of the deposited data

Results flagged for a closer look

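Within the groups of 6 fl/fl libraries, a library standing apart from the other 5 was found in 18 of 290 checks of genes, marker sums and totals, where chance gives about 1 in 20. Number 5 was high in labeled cells for Foxp3 (513 CPM, the others 324 to 384) and Tnfrsf18 (279 CPM, the others 166 to 207), and in ex-Foxp3 cells for Tnfrsf18 (157 CPM, 94.9 to 118), Tnfrsf4 (161 CPM, 102 to 116), Tnfrsf1b (282 CPM, 192 to 219) and Epcam (13.6 CPM, 3.38 to 6.99). Number 3 was apart in ex-Foxp3 cells for Actn1 (142 CPM, 175 to 184), Cd3d (139 CPM, 164 to 178) and Gbp7 (325 CPM, 229 to 248), and in labeled cells for Dgka (855 CPM, 1029 to 1097). Number 1 was high in labeled cells for Eomes (8.43 CPM, at most 3.13 in the others) and Maf (1007 CPM, 757 to 850). Il18r1 was low in labeled number 6 (364 CPM, 459 to 486), and Impact in ex-Foxp3 number 4 (34.0 CPM, 46.6 to 53.4). Marker sums stood apart for NK cells in ex-Foxp3 number 1 (9.15 CPM, at most 1.17 in the others) and in labeled number 6 (0.783 CPM, the others at 0), for gamma delta and innate-like T cells in ex-Foxp3 number 1 (0.832 CPM, the others at 0), and for erythroid cells in labeled number 5 (1.25 CPM, at most 0.439 in the others).

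The change of Gcnt1 from labeled to ex-Foxp3 cells differed between genotypes by 1.49 on the log2 scale, at 0.38 in fl/fl mice and -1.10 in controls, by the test of the difference itself.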

How the results depend on the processing

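With the library number as a replicate block 1000 genes were called in fl/fl mice, 499 in controls and 1 for the genotype difference; with no replicate block these were 437, 137 and 0, and with all 33 pulse-chase libraries and no replicate block 406, 35 and 0. In the latter fit 49.8% of fl/fl and 45.7% of control calls were lower, against 58.8% and 59.3%. With numbers 4 and above alone 267 fl/fl and 175 control genes were called. Leaving out each number gave 662 (without 2) to 1009 genes in fl/fl mice, 318 (without 1 or 3) to 430 in controls, and leaving out each number of either genotype 0 to 4 for the difference. With no count filter the difference called 25 genes. RLE and upper quartile factors, the 50-count filter and DESeq2 kept the 3 counts within 1.5 times of those reported. Of the 121 named genes called in fl/fl mice, 43 were called in every setting, 50 were lost without the block and 9 with DESeq2. Of the 14 named genes not called, 11 were called in 1 or more other settings. With numbers 4 and above alone, 3 uncalled genes changed sign: Tox to 0.18, Dnmt1 to 0.094 and Gcnt1 to -0.0065. The causes of these changes were not tested, beyond the fewer libraries in fits that leave some out.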
